A study of Homo sapiens with 12 samples.

Results

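A set of 20 protein-coding genes had low signal in the colorectal cancer cell line RKO and clear signal in the colorectal cancer lines HCT116 and SW48. They were chosen by the values of the 6 untreated arrays of a 12-array expression series, 2 arrays for each line, from 11729 protein-coding genes. A gene entered when its untreated mean was at most 5.0 in RKO and at least 7.5 in both HCT116 and SW48, on the deposited log2 scale, on which 1 unit is a 2-fold difference. The families of solute carriers, keratins, claudins, cadherins, HOX factors, integrins, collagens, cytochromes P450 and aldehyde dehydrogenases were left out by their symbols, and so were ESRP1, EPCAM and PLK2. Of all these, 2 genes, ESRP1 and PLK2, met the limits on level and were removed by name. The same limits with HCT116 as the low line gave 9 genes, and with SW48 as the low line 23 genes. The untreated levels of RKO against the other lines are therefore a description of how the genes were chosen, and no test is attached to them.

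The study compared cells given the MDM2 inhibitor Nutlin-3a at 10 µM for 8 h with untreated cells in RKO, HCT116 and SW48, each labelled p53 wild type, with 2 arrays in each of the 6 groups. All 3 are established tumour lines grown in culture, so each group models a tumour line and not colon tissue. The labels number the samples of a group as replicates and do not say that they came from separate cultures, and p-values then measure only the spread between these samples, which may be technical. The labels also hold details that do not settle how samples were made, since RNA extraction is described for thyroids, growth conditions are described for HCT116 only, and the dye field gives Cy3 although labelling is described with biotin. No vehicle is named for the untreated cells.

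Epithelial cells of the gut are held together by tight junctions, adherens junctions and desmosomes, sort proteins to an apical and a basolateral surface, and keep this state through transcription factors of the grainyhead, OVOL, KLF and ETS families. Colorectal tumours often keep much of this programme, and poorly differentiated tumours, of which RKO is a commonly used model line, keep less of it. The tumour suppressor p53 is kept low by the ubiquitin ligase MDM2, and Nutlin-3a occupies the p53 pocket of MDM2, so that p53 builds up and its target genes are transcribed.

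The genes have varied roles. DSC2, MPZL2, GRHL2, MYO5C, HOOK1 and PROM1 belong to junctions, epithelial transcription, membrane traffic and the cell surface. EREG, RNF43, AHR and IL18 act in signalling. ANXA3, S100A10, TES and FNBP1 act at membranes and the actin cytoskeleton, and ACSL5 and MAOB are enzymes of lipid and amine metabolism. SCML2, LRIF1, ZNF280B and NUP62CL are nuclear proteins or are named for likeness to one. They lie on 12 chromosomes, with 3 each on chromosomes 1, 4 and X.

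A RefSeq promoter window of GRCh38.p14 was matched for 15 of the 20 genes, and the 250 bases before the annotated start were searched on both strands. The E-box CAGGTG, whose reverse complement is CACCTG, occurred in 8 of 15 members (53.3%) and in 1584 of 9559 protein-coding genes of the array with a window of the same length (16.6%). Such E-boxes are known in other work as sites where repressors of the ZEB and SNAI families, and many other factors, can bind. The match is a description of letters and not of binding, and no test is attached to it, since the motif was chosen after the members were known. Over the whole 300 bases, searched first, the counts were 8 of 15 members and 19.5% of all windows. The windows of DSC2, ANXA3, EREG, HOOK1 and MYO5C are shown 5′ to 3′ on the gene's strand because they are the 5 E-box holders with the widest gap in untreated level between RKO and the other lines, and capitals mark the E-box.
DSC2, chr18:31102422-31102671, minus strand: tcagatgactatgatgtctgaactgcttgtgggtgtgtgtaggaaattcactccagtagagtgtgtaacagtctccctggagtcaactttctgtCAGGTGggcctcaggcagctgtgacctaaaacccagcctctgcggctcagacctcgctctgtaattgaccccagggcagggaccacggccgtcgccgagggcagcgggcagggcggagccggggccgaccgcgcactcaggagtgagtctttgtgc
ANXA3, chr4:78551520-78551769, plus strand: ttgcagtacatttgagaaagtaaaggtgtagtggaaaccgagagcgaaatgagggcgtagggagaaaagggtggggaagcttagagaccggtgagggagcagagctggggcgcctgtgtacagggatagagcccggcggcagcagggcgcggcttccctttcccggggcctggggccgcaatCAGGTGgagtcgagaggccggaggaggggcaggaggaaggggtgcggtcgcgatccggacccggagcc
EREG, chr4:74364895-74365144, plus strand: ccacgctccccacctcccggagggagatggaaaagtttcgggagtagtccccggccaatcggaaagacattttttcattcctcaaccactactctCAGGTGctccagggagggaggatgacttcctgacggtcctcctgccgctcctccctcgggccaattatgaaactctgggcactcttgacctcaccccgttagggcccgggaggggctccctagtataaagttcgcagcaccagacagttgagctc
HOOK1, chr1:59814699-59814948, plus strand: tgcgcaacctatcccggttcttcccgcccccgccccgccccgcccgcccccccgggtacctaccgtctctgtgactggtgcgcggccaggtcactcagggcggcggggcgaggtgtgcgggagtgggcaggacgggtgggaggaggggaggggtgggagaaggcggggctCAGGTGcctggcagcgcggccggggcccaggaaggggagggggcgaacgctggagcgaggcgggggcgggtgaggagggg
MYO5C, chr15:52295805-52296054, minus strand: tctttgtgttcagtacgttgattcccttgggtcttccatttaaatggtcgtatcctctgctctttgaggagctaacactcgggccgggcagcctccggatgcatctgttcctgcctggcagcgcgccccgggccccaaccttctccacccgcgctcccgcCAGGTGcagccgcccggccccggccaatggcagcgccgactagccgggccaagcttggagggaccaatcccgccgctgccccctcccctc

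The E-box began 156 bases before the start in DSC2, 155 in EREG, 90 in MYO5C, 80 in HOOK1 and 68 in ANXA3. It was present too in PROM1, 103 bases before the start, in NUP62CL, 154 bases before it, and in FNBP1, 185 bases before it. The other 3 motifs searched were no more common in the members than among all windows. The core letters read by the AHR dimer, GCGTG or CACGC, were in 6 of 15 members (40%), among them EREG and TES, and in 41.4% of all windows, while the window of AHR itself held none. A TATA box, TATAAA or TTTATA, was in EREG alone (6.67% of members, 7.74% of all), and the grainyhead core AACCGGTT was in 0 members and in 0.115% of all windows. Matches of different motifs overlapped 0 times in the members. The windows had a median of 19 CpG sites in the members and 19 in all genes, and a median ratio of observed to expected CpG of 0.719 in the members and 0.768 in all genes. ACSL5 (0.192) and RNF43 (0.231) had the lowest ratios, and SCML2 (0.992) and AHR (0.942) the highest.

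All 4 RKO arrays lay below all 8 arrays of HCT116 and SW48 for each of the 20 genes. This separation holds for 9.52% of the 14118 named genes of the table, but 2 of the 4 RKO arrays and 4 of the 8 others chose the members, so the count is read no further. The distance between the highest RKO array and the lowest of the other 8 was widest for AHR, at 6.01 on the log2 scale, and narrowest for S100A10, at 2.09. Member means ran from 3.77 to 5.09 in treated RKO and from 3.72 to 4.92 in untreated RKO. In HCT116 they ran from 7.5 to 12.45 with Nutlin-3a and from 7.55 to 12.34 without, and in SW48 from 7.71 to 11.32 with Nutlin-3a and from 7.74 to 11.46 without. The deposited values carry no detection calls, so the RKO levels are called low and not absent. In untreated RKO 23.4% of protein-coding genes had a mean at or under 5.0. In bulk RNA, fewer cells with a transcript and less of it per cell cannot be told apart.

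**Figure D1:**
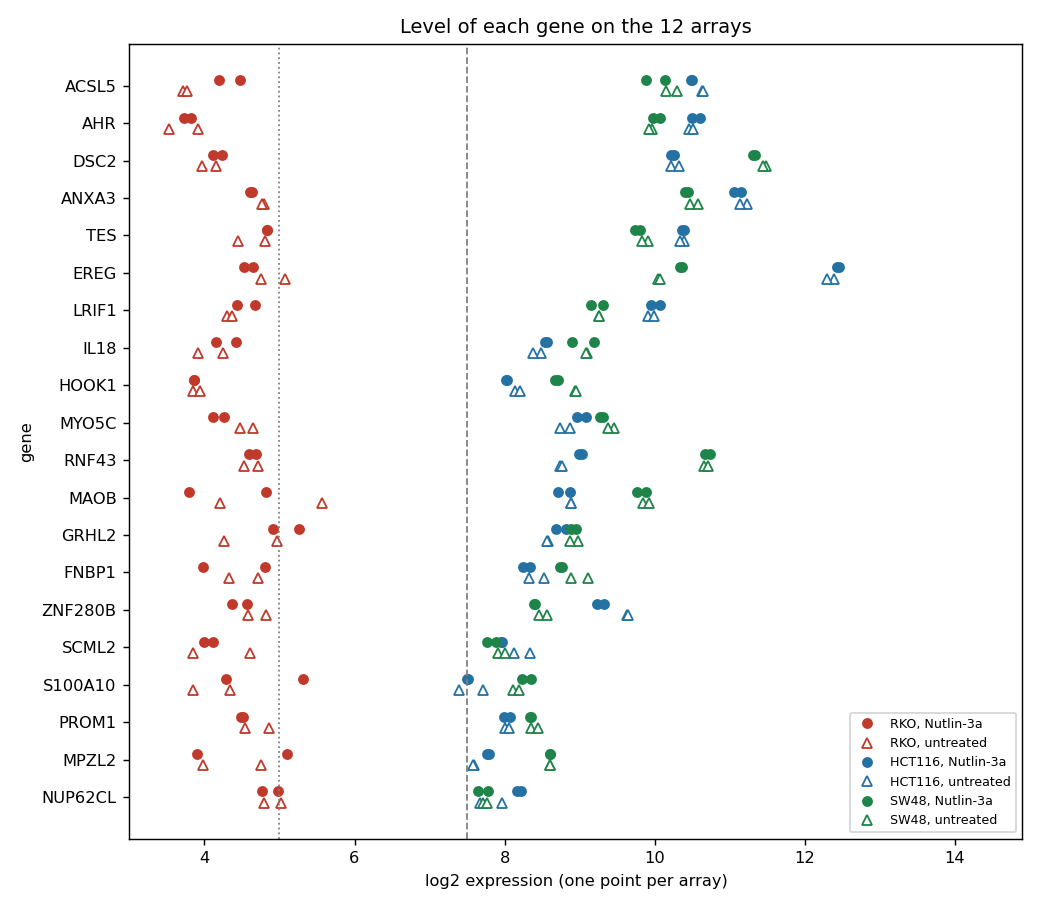
Levels of the 20 genes on each of the 12 arrays, on the log2 expression scale, with filled circles for Nutlin-3a arrays and open triangles for untreated arrays of RKO, HCT116 and SW48. Genes run from the widest untreated gap, ACSL5, to the narrowest, NUP62CL; the dotted line marks the RKO limit of 5.0 and the dashed line the limit of 7.5 for the other lines, and no RKO array reaches an array of another line.

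Some members sat close to the limits. EREG at 4.92, NUP62CL at 4.91 and MAOB at 4.88 were nearest to the RKO limit, while TMEM171 and SULF2 at 5.12, SYT17 at 5.17, DPP4 at 5.24 and CDA at 5.35 fell just outside it. At the other limit the lower untreated mean of HCT116 and SW48 was 7.55 for S100A10, 7.58 for MPZL2 and 7.74 for NUP62CL, against 7.47 for SDCCAG8, 7.38 for C1orf210, 7.24 for CRYBG1, 7.17 for ADAM19 and 7.16 for OSBPL6, which stayed out.

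The replicate spread of the members was wider in RKO than where they were expressed. The median SD over the members was 0.12 in treated and 0.226 in untreated RKO, 0.0348 in treated and 0.0501 in untreated HCT116, and 0.0434 in treated and 0.05 in untreated SW48. In 18 of 20 members the larger RKO SD exceeded every SD of the other lines, and in 5 members, MAOB, MPZL2, S100A10, FNBP1 and SCML2, it was over 0.5, a size reached by 0 members in HCT116 or SW48. Over all named genes the median SD was 0.0607 in treated and 0.0625 in untreated RKO, and 0.0565 to 0.0633 in the groups of HCT116 and SW48. The counts of 18 and 5 were not made over all genes or over genes of equally low signal. The tests estimate 1 spread per gene over all groups.

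Array medians lay between 4.97 and 5.05, and over all probe sets the correlation was 0.996 to 0.997 within a group and 0.957 to 0.965 between lines. Differences were tested in 1 limma model of all 14118 named genes, and a gene was called at a Benjamini-Hochberg adjusted p under 0.05, with ± on a difference giving its standard error. In RKO, 23 of 27 measured p53 target genes rose with Nutlin-3a and 0 fell, against 1.23% of all genes that rose. Of 10 measured colorectal epithelial markers, 5 (KRT8, KRT18, KRT19, KRT20 and EPCAM) were lower in treated RKO than in both other treated lines. The share over all genes, whatever their level, was 9.51%. CDX1, CDX2, VIL1, CEACAM5 and GPA33 were not lower than both. CDX2 was at 7.41 in treated RKO and 7.44 in treated HCT116, and CEACAM5 at 4.44 in treated RKO and 4.49 in treated HCT116. The widest differences from treated HCT116 were those of EPCAM, at -5.16, and KRT19, at -4.38. The summed log2 level of all 10 was 58.43 to 59.06 in treated RKO and 59.16 to 59.3 in untreated RKO. In HCT116 it was 70.75 to 71.32 with Nutlin-3a and 70.51 to 70.8 without. In SW48 it was 75.29 to 75.46 with Nutlin-3a and 74.93 to 75.19 without.

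Of the epithelial members, DSC2, GRHL2 and MPZL2 concern cell adhesion and its control. DSC2 encodes desmocollin 2, a cadherin of the desmosome, the spot junction that ties the keratin filaments of neighbouring cells. It measured 4.12 and 4.24 in treated RKO and 4.15 and 3.97 in untreated RKO. It measured 10.22 and 10.26 in treated and 10.22 and 10.32 in untreated HCT116, and 11.33 and 11.31 in treated and 11.48 and 11.45 in untreated SW48. All SW48 arrays lay above all HCT116 arrays, and the RKO arrays with and without the drug overlapped. GRHL2 encodes a grainyhead-like transcription factor that sustains the expression of epithelial junction genes. Its RKO values were 4.91 and 5.27 with Nutlin-3a and 4.97 and 4.26 without, against 8.68 and 8.82 in treated and 8.58 and 8.56 in untreated HCT116 and 8.89 and 8.96 in treated and 8.98 and 8.87 in untreated SW48. One untreated RKO array was low at 4.26, the remaining 3 RKO arrays lay close together, and the HCT116 and SW48 arrays nearly met. MPZL2, an immunoglobulin-like adhesion protein also called epithelial V-like antigen, had RKO values of 3.90 and 5.11 with the drug and 4.76 and 3.99 without. It stood at 7.79 and 7.76 in treated and 7.59 and 7.58 in untreated HCT116, and at 8.60 and 8.60 in treated and 8.60 and 8.61 in untreated SW48. The RKO arrays spread widely, and treated and untreated RKO overlapped, while each pair in the other lines was nearly equal.

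MYO5C, HOOK1 and PROM1 serve membrane traffic and the cell surface. MYO5C encodes a class V myosin that moves secretory vesicles along actin in glandular epithelia. It measured 4.12 and 4.26 in treated RKO, below the 4.47 and 4.65 of untreated RKO. In HCT116 it measured 8.97 and 9.08 with the drug, above 8.74 and 8.87 without, and in SW48 9.27 and 9.31 with the drug, below 9.45 and 9.37 without. HOOK1, an adaptor that joins cargo to dynein on microtubules, varied little in RKO, at 3.87 and 3.86 with Nutlin-3a and 3.85 and 3.94 without. It stood at 8.03 and 8.02 in treated HCT116 and 8.13 and 8.20 in untreated HCT116, and at 8.71 and 8.67 in treated SW48 and 8.94 and 8.95 in untreated SW48. Treated arrays lay below untreated arrays in both of these lines. PROM1 encodes prominin 1, the CD133 antigen, a membrane glycoprotein of surface protrusions. Its values were 4.49 and 4.51 in treated and 4.54 and 4.87 in untreated RKO, 7.99 and 8.07 in treated and 8.01 and 8.06 in untreated HCT116, and 8.34 and 8.36 in treated and 8.35 and 8.44 in untreated SW48. SW48 was above HCT116 on every array, by a small margin.

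EREG differed more between HCT116 and SW48 than any other member. It encodes epiregulin, a growth factor of the EGF family that activates EGFR and ERBB4. In RKO it measured 4.52 and 4.64 with Nutlin-3a and 4.76 and 5.07 without, so the treated arrays lay below the untreated ones. It measured 12.46 and 12.43 in treated HCT116 and 12.39 and 12.29 in untreated HCT116, and 10.33 and 10.37 in treated SW48 and 10.04 and 10.08 in untreated SW48. Treated arrays were above untreated arrays in both, the opposite side from RKO. RNF43 encodes a ubiquitin ligase of the cell membrane that removes Frizzled receptors and so limits Wnt signalling. Its RKO values were 4.69 and 4.59 with the drug and 4.71 and 4.53 without, which overlapped. In HCT116 it stood at 9.03 and 8.99 with the drug and 8.74 and 8.76 without, and in SW48 at 10.73 and 10.67 with the drug and 10.65 and 10.72 without. SW48 was the high line for RNF43, and HCT116 for EREG.

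AHR and IL18 sense or signal stress at barriers. AHR, the aryl hydrocarbon receptor, is a transcription factor switched on by dioxins, dietary indoles and other small molecules. It measured 3.83 and 3.72 in treated RKO and 3.91 and 3.53 in untreated RKO, against 10.49 and 10.60 in treated and 10.46 and 10.51 in untreated HCT116 and 9.98 and 10.07 in treated and 9.96 and 9.93 in untreated SW48. No array of 1 line overlapped an array of another. Treated and untreated arrays overlapped in RKO and HCT116, and the treated arrays lay just above the untreated ones in SW48. IL18 encodes an IL-1 family cytokine that epithelial cells make as a precursor and caspase-1 activates. Its values were 4.42 and 4.15 in treated and 3.91 and 4.24 in untreated RKO, 8.54 and 8.56 in treated and 8.48 and 8.38 in untreated HCT116, and 9.19 and 8.90 in treated and 9.10 and 9.09 in untreated SW48. SW48 was above HCT116 on every array.

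ANXA3, S100A10, TES and FNBP1 act where membranes meet the cytoskeleton. ANXA3 is an annexin, a protein that binds phospholipid in the presence of calcium, and measured 4.60 and 4.63 in treated RKO and 4.79 and 4.77 in untreated RKO. It measured 11.15 and 11.06 in treated HCT116 and 11.22 and 11.13 in untreated HCT116, and 10.44 and 10.41 in treated SW48 and 10.47 and 10.58 in untreated SW48. HCT116 was the higher of these lines on every array. S100A10, the p11 partner of annexin A2, varied widely in RKO, at 5.31 and 4.29 with the drug and 3.85 and 4.35 without. It stood at 7.5 and 7.51 in treated and 7.71 and 7.40 in untreated HCT116, and at 8.35 and 8.23 in treated and 8.12 and 8.19 in untreated SW48. A treated RKO array at 5.31 was the highest RKO value of this gene, and its partner array at 4.29 fell inside the untreated range.

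TES encodes testin, a LIM protein of focal adhesions. Its level was 4.83 and 4.84 in treated RKO and 4.81 and 4.44 in untreated RKO, 10.37 and 10.39 in treated and 10.40 and 10.34 in untreated HCT116, and 9.80 and 9.73 in treated and 9.91 and 9.83 in untreated SW48. Both treated RKO arrays lay just above both untreated arrays, and HCT116 lay above SW48 throughout. FNBP1 encodes an F-BAR protein that bends membrane and recruits actin regulators during endocytosis. It measured 4.81 and 3.98 in treated and 4.72 and 4.33 in untreated RKO, 8.33 and 8.24 in treated and 8.33 and 8.52 in untreated HCT116, and 8.77 and 8.73 in treated and 9.12 and 8.88 in untreated SW48. The treated RKO arrays enclosed the untreated ones, and SW48 lay above HCT116.

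ACSL5 had the widest untreated gap of all members, 6.49 on the log2 scale or 89.6-fold between RKO and the lower of the other lines. It encodes an acyl-CoA synthetase that activates long-chain fatty acids and is abundant in intestinal epithelium. Its RKO values were 4.19 and 4.47 with Nutlin-3a and 3.72 and 3.76 without, so both treated arrays exceeded both untreated ones. In HCT116 it measured 10.50 and 10.48 with the drug and 10.63 and 10.64 without, and in SW48 10.14 and 9.89 with the drug and 10.16 and 10.30 without. In these lines the treated arrays lay below the untreated arrays. MAOB, a monoamine oxidase of the outer mitochondrial membrane, had the largest SD of any member in a group, 0.96 in untreated RKO. Its RKO values were 4.82 and 3.79 with the drug and 4.20 and 5.56 without. It measured 8.88 and 8.71 in treated and 8.89 and 8.88 in untreated HCT116, and 9.88 and 9.77 in treated and 9.85 and 9.92 in untreated SW48. The untreated RKO array at 5.56 was above the limit of 5.0 that its group mean met.

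Among the nuclear proteins, SCML2 belongs to the Polycomb group of gene silencers. It measured 4.0 and 4.11 in treated and 3.85 and 4.61 in untreated RKO, 7.95 and 7.96 in treated and 8.12 and 8.34 in untreated HCT116, and 7.89 and 7.76 in treated and 7.91 and 8.00 in untreated SW48. HCT116 and SW48 overlapped, unlike in most other members. LRIF1 encodes a partner of HP1 and SMCHD1 in condensed chromatin. Its probe set read 4.68 and 4.43 in treated and 4.31 and 4.37 in untreated RKO, 9.95 and 10.08 in treated and 9.91 and 9.99 in untreated HCT116, and 9.31 and 9.15 in treated and 9.26 and 9.25 in untreated SW48. A second probe set of LRIF1, with a lower mean and so not used, read 3.52 in untreated RKO, 4.90 in untreated HCT116 and 4.62 in untreated SW48, and would not have met the limits. LRIF1 alone among the 20 had more than 1 probe set.

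ZNF280B, a zinc finger protein, measured 4.56 and 4.37 in treated and 4.82 and 4.59 in untreated RKO. It measured 9.32 and 9.24 in treated HCT116, below 9.63 and 9.65 in untreated HCT116, and 8.39 and 8.41 in treated SW48, just below 8.46 and 8.57 in untreated SW48. Treated arrays lay below untreated arrays in all 3 lines. NUP62CL, named for its likeness to the C-terminal part of the nuclear pore protein NUP62, had the narrowest untreated gap, 2.83 or 7.10-fold. It measured 4.77 and 4.98 in treated and 5.02 and 4.80 in untreated RKO, 8.17 and 8.22 in treated and 7.97 and 7.67 in untreated HCT116, and 7.77 and 7.65 in treated and 7.71 and 7.76 in untreated SW48. Untreated HCT116 and SW48 overlapped, and treated HCT116 lay above both.

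The Nutlin-3a arrays did not take part in choosing the genes and came from the same lines. They give levels on arrays that the choice did not use, although the calls rest on a spread estimated over all 12 arrays. Treated RKO was lower than treated HCT116 for 20 of 20 members, against 19.7% of all named genes, and lower than treated SW48 for 20 of 20, against 20.7%. It was lower than both for 20 of 20, against 9.51%. These counts follow from the choice, since the untreated gaps were 2.83 or more and no Nutlin-3a change of a member exceeded 0.70 in size. The counts are therefore read no further, and the values below describe the size of the differences, without p-values. The median difference of the members was -4.43 from HCT116, with a range from -7.86 for EREG to -2.71 for S100A10, and the median over all genes was 0.043. From SW48 it was -4.79, with a range from -7.14 for DSC2 to -2.83 for NUP62CL, and 0.016 over all genes. EREG was 233-fold lower in treated RKO than in treated HCT116 (log2 difference -7.86 ± 0.095, standard error). DSC2 was 141-fold lower in treated RKO than in treated SW48 (-7.14 ± 0.076), and AHR 109-fold lower than in treated HCT116 (-6.77 ± 0.11). At the other end, S100A10 was 6.52-fold lower than in treated HCT116 (-2.71 ± 0.27). Differences between lines and differences in how each line was cultured or hybridised cannot be told apart.

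Few of these genes passed the test for a change with Nutlin-3a. In RKO, ACSL5 rose and the other 19 members did not pass, in HCT116 0 of 20 passed, and in SW48 HOOK1 fell and the other 19 did not pass. These contrasts use the untreated arrays that also chose the members. The shares of all named genes that passed were 2.02% in RKO, 5.11% in HCT116 and 3.12% in SW48, so counts of 1, 0 and 1 among 20 are near the background. At an unadjusted p under 0.05 there were 8 of 20 members in RKO (16.9% of all genes), 5 of 20 in HCT116 (19.6%) and 2 of 20 in SW48 (16.2%). The RKO count was above its share over all genes. The untreated RKO arrays in this contrast also chose the members, so that count is read no further. The median change of the members was -0.0048 in RKO (-0.0068 over all genes), 0.0035 in HCT116 (-0.0112 over all genes) and -0.054 in SW48 (-0.0133 over all genes).

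ACSL5 in treated RKO averaged 4.33 ± 0.20, against 3.74 ± 0.032 in untreated RKO (SD, n = 2 each). The rise was 1.5-fold (log2 difference 0.59 ± 0.11, standard error, adjusted p = 0.0246), and 1.23% of all genes rose in RKO. Even so, the highest RKO value of ACSL5, 4.47, stayed 5.42 below the lowest value of the other lines. The call was lost without untreated array 1 (adjusted p = 0.135), untreated array 2 (0.087) or Nutlin-3a array 2 (0.114) of RKO. In HCT116 the difference was -0.15 ± 0.11 (adjusted p = 0.511) and in SW48 -0.21 ± 0.11 (adjusted p = 0.362). An F test that the drug effect is equal in the 3 lines passed for 0 of 20 members and for 0.503% of all genes. ACSL5 came nearest (adjusted p = 0.0722), followed by MYO5C (0.132) and EREG (0.142), and 3 of 20 members had an unadjusted p under 0.05, against 14.3% of all genes.

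HOOK1 averaged 8.69 ± 0.027 in treated SW48, against 8.95 ± 0.0012 in untreated SW48 (SD, n = 2 each). It fell by 1.20-fold (log2 difference -0.26 ± 0.059, adjusted p = 0.0471), in a line where 1.74% of all genes fell. Its difference was -0.14 ± 0.059 in HCT116 (adjusted p = 0.216) and -0.034 ± 0.059 in RKO (adjusted p = 0.829). The call sits at the threshold and was lost whenever any 1 of the 12 arrays was left out.

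**Figure D2:**
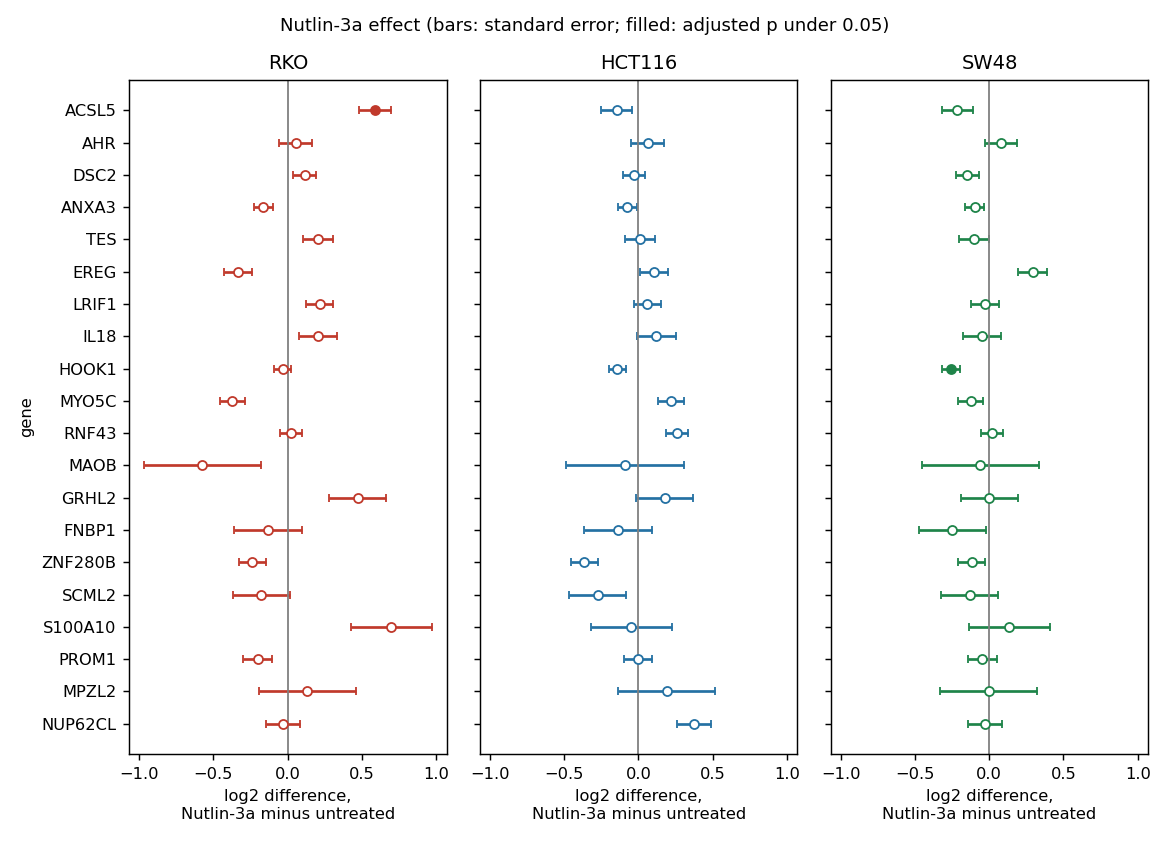
Nutlin-3a minus untreated difference on the log2 scale for the 20 genes in RKO, HCT116 and SW48, as the estimate with its standard error from 1 model of all 12 arrays. Filled points passed at an adjusted p under 0.05, which are ACSL5 in RKO and HOOK1 in SW48, and the bars of MAOB, MPZL2 and S100A10 are wide in every panel because 1 spread per gene is shared by the lines.

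Several other members had sizeable estimates that did not pass. S100A10 differed by 0.70 ± 0.27 in RKO (adjusted p = 0.234), and the difference was 0.19 without Nutlin-3a array 1 of RKO (adjusted p = 0.720) and 1.21 without Nutlin-3a array 2 (adjusted p = 0.027). GRHL2 differed by 0.47 ± 0.19 in RKO (adjusted p = 0.248), by 0.83 without untreated array 1 of RKO (adjusted p = 0.0333) and by 0.12 without untreated array 2 (adjusted p = 0.734). MYO5C differed by -0.37 ± 0.085 (adjusted p = 0.0614) and EREG by -0.33 ± 0.095 (adjusted p = 0.115) in RKO. The EREG difference was -0.49 without untreated array 1 (adjusted p = 0.0381) and -0.18 without untreated array 2 (adjusted p = 0.348). MAOB differed by -0.57 ± 0.39 (adjusted p = 0.516), less than the distance between its own replicates. In HCT116, ZNF280B differed by -0.36 ± 0.092 (adjusted p = 0.0528), NUP62CL by 0.37 ± 0.11 (0.104) and RNF43 by 0.26 ± 0.073 (0.0765). ZNF280B passed in HCT116 without either untreated array of RKO (adjusted p = 0.036) or either Nutlin-3a array of RKO (0.0475), with no change in the difference itself. In SW48, EREG differed by 0.29 ± 0.095 (adjusted p = 0.151). AHR had small estimates in every line, 0.055 ± 0.11 in RKO, 0.062 ± 0.11 in HCT116 and 0.080 ± 0.11 in SW48. With 2 arrays a group, a p over the threshold does not show that a gene is unaffected.

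The lines that express the genes did so at unequal levels. Between treated SW48 and treated HCT116, 15 of 20 members differed, against 46.8% of all genes, with 7 higher in SW48 (23.3% of all genes) and 8 lower (23.5%). All 20 members had means of at least 7.5 in both treated lines. Of protein-coding genes, 43.9% reached that level in treated HCT116 and 44.1% in treated SW48. The shares over all genes are therefore not for genes of like level. RNF43 was 3.23-fold higher in treated SW48 than in treated HCT116 (log2 difference 1.69 ± 0.073, adjusted p = 3.95e-08) and DSC2 2.11-fold higher (1.08 ± 0.076, adjusted p = 1.38e-06). EREG was 4.27-fold lower (-2.09 ± 0.095, adjusted p = 6.05e-08) and ZNF280B 1.84-fold lower (-0.88 ± 0.092, adjusted p = 2.34e-05). S100A10, HOOK1, IL18, PROM1 and MYO5C were also higher in SW48, by log2 differences between 0.26 and 0.78. LRIF1, ANXA3, TES, AHR, NUP62CL and ACSL5 were also lower in SW48, by differences between -0.78 and -0.48.

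**Figure D3:**
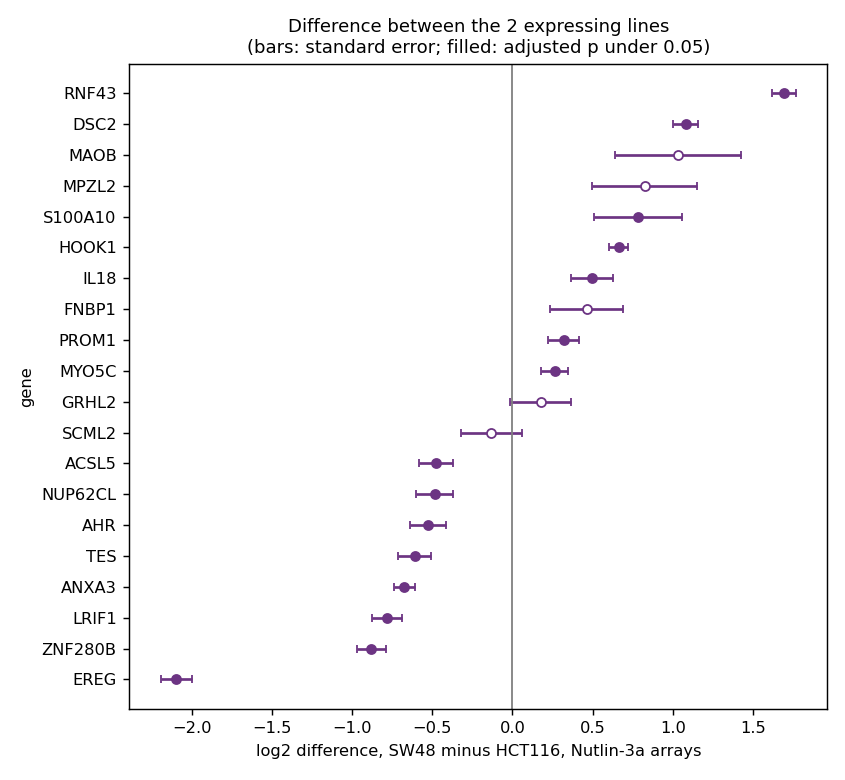
Difference between treated SW48 and treated HCT116 arrays on the log2 scale for the 20 genes, as the estimate with its standard error, ordered by size. Filled points passed at an adjusted p under 0.05, 7 above 0 led by RNF43 at 1.69 and 8 below 0 ending with EREG at -2.09.

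MAOB (1.03 ± 0.39, adjusted p = 0.0550), MPZL2 (0.82 ± 0.33, 0.0642), FNBP1 (0.46 ± 0.23, 0.126), GRHL2 (0.17 ± 0.19, 0.499) and SCML2 (-0.13 ± 0.19, 0.617) did not pass between SW48 and HCT116. Their standard errors come from 1 spread over all arrays, those of RKO included. With the SW48 and HCT116 treated arrays fitted alone, MAOB (adjusted p = 0.000354), MPZL2 (0.000286) and FNBP1 (0.00359) passed. Calls that depended on single arrays were those of IL18, lost without SW48 Nutlin-3a array 1 (adjusted p = 0.0886), and of MYO5C, PROM1 and S100A10, each lost without any 1 of several arrays, with adjusted p-values up to 0.154 for MYO5C, 0.0966 for PROM1 and 0.146 for S100A10.

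The members were set beside gene lists of the same programmes, counting genes lower in treated RKO than in both other treated lines. The background for this count is the 9.51% given above, over all genes. Of protein-coding genes, 22.1% had means at or under 5 in treated HCT116 and 22.2% in treated SW48. The 9.51% is therefore not for genes of like level. Of 24 measured genes of epithelial junctions and polarity, 18 were lower and 1, PARD3, was higher, and the median difference of the list was -0.70 from treated HCT116 and -0.72 from treated SW48, against 0.043 from HCT116 and 0.016 from SW48 over all genes. Named genes outside the 20 are given by their means of 2 arrays, and over the 254 list genes that are not members the SD in a treated group had a median of 0.0602 and a highest value of 0.569. DSC2 is 1 of the 18, and the widest differences among the others were those of CLDN7, a claudin of tight junctions, at 5.71 in treated RKO, 11.33 in treated HCT116 and 11.11 in treated SW48. JUP, the plakoglobin of desmosomes and adherens junctions, stood at 6.19 in treated RKO, 10.84 in treated HCT116 and 10.89 in treated SW48. Of 17 transcription and splicing factors 7 were lower, GRHL2 included, and 2, GRHL1 and GATA6, were higher, with a median difference of -0.0054 from treated HCT116 and -1.74 from treated SW48. ESRP1, a splicing factor that met the limits but was set aside by name, was at 4.46 in treated RKO, 10.56 in treated HCT116 and 10.63 in treated SW48. EHF, an epithelial ETS factor, was at 6.30 in treated RKO, 10.34 in treated HCT116 and 11.12 in treated SW48.

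Of 18 genes of membrane traffic and the apical domain 11 were lower, MYO5C included, and 2, STX3 and RAB11FIP1, were higher, with a median difference of -0.58 from treated HCT116 and -1.02 from treated SW48. MYO5B, the close relative of MYO5C, stood at 6.40 in treated RKO, 8.80 in treated HCT116 and 9.72 in treated SW48, and ST14, the membrane protease matriptase, at 5.65 in treated RKO, 10.43 in treated HCT116 and 10.90 in treated SW48. Of 17 surface antigens and receptors 7 were lower, PROM1 included, and 1, the receptor kinase gene EPHA2, was higher at 10.69 in treated RKO, 10.45 in treated HCT116 and 10.01 in treated SW48. The median difference of these 17 was -0.33 from treated HCT116 and -1.40 from treated SW48. Of 14 Wnt target and feedback genes 1 was lower, RNF43 itself, and 1, the transcription factor gene LEF1, was higher at 6.74 in treated RKO, 3.63 in treated HCT116 and 3.62 in treated SW48. Of 25 genes known for promoter methylation in colorectal cancer 1, SEPTIN9, was lower and 2, MGMT and GATA4, were higher. Of these 25, 7 had means at or under 5 in every group, which left little room to be lower in RKO. SEPTIN9 alone reached the level asked of members in both other treated lines, at 9.75 in treated HCT116 and 9.49 in treated SW48. RASSF5 came next by the lower of its means in these lines, at 7.23 in treated HCT116 and 7.25 in treated SW48. The count and the median differences of this list therefore cannot show whether genes known for methylation are low in RKO. HLTF stood at 4.01 in treated RKO, 9.88 in treated HCT116 and 3.65 in treated SW48, so it was low in SW48 as well and is not counted. The median difference of the Wnt list was 0.20 from treated HCT116 and -1.56 from treated SW48, and that of the list known for methylation 0.039 from treated HCT116 and 0.047 from treated SW48. DNA methylation was not measured here.

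Genes of the mesenchymal state were measured beside these. Of 12, 3 were higher in treated RKO than in both, which were the transcription factor gene SNAI2 (7.97 in treated RKO, 6.91 in treated HCT116, 5.32 in treated SW48), the receptor kinase gene AXL (11.24 in treated RKO, 10.22 in treated HCT116, 6.31 in treated SW48) and CCN2, a matricellular growth factor (10.27 in treated RKO, 6.64 in treated HCT116, 5.91 in treated SW48). FBN1 was lower than both, and the rest of the 12 were neither. ZEB1 was at 6.28 in treated RKO, 6.11 in treated HCT116 and 5.38 in treated SW48. In the same order ZEB2 was at 4.35, 4.37 and 4.40, and SNAI1 at 7.90, 7.90 and 7.49. VIM was at 5.85, 5.69 and 6.05, and FN1 at 4.89, 6.08 and 4.90. The median difference of the list was 0.11 from treated HCT116 and 0.16 from treated SW48. Of all genes, 12.3% were higher in treated RKO than in both. The summed log2 level of the 12 was 77.03 to 77.49 in treated RKO and 77.11 to 77.37 in untreated RKO, 72.25 to 72.91 in treated and 72.16 to 72.47 in untreated HCT116, and 64.15 to 64.71 in treated and 64.41 to 64.76 in untreated SW48. Treated RKO differed from treated HCT116 by 3.64 for CCN2, 1.06 for SNAI2 and 1.02 for AXL. From treated SW48 the differences were 4.36 for CCN2, 2.64 for SNAI2 and 4.93 for AXL. Together these 3 genes exceed the gap in the sums from treated HCT116 and make up most of the gap from treated SW48. The sums therefore do not describe the list as a whole. The part of the 12 genes in the low levels of the 20 genes was not tested. Markers of other cells were sparse on the array, with 2 of 3 fibroblast markers (LUM and THY1), 1 of 3 immune markers (CD68), and 0 of 4 endothelial, 0 of 4 neural and 0 of 6 thyroid markers higher in treated RKO than in both. CD68, a lysosomal protein of macrophages that tumour cells can also make, was at 10.56 in treated RKO, 8.75 in treated HCT116 and 8.70 in treated SW48, and LUM at 4.19 in treated RKO, 3.39 in treated HCT116 and 3.32 in treated SW48. Over the arrays of each line the 3 fibroblast markers summed to at most 13.22 in RKO, 12.46 in HCT116 and 12.18 in SW48, and the 3 immune markers to at most 18.65 in RKO, 16.72 in HCT116 and 16.89 in SW48. The part of these markers in the result was not tested.

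Families and partners of the members were looked up after the members' values had been seen, and they show which relatives went along. Of 13 desmosome genes 4 were lower in treated RKO than in both, DSC2, DSG2, DSP and JUP. DSC3, a second desmocollin beside DSC2 on chromosome 18, had clear signal in HCT116 alone, at 4.29 in treated RKO, 8.62 in treated HCT116 and 4.27 in treated SW48. The desmogleins DSG3 and DSG4 had their signal in SW48, DSG3 with 4.30 in treated RKO, 4.30 in treated HCT116 and 7.12 in treated SW48, and DSG4 with 4.24 in treated RKO, 4.28 in treated HCT116 and 6.27 in treated SW48. Of 19 annexins and S100 proteins 11 were lower, the members ANXA3 and S100A10 included, and 9 of the 11 were not members. S100A14 stood at 6.27 in treated RKO, 9.67 in treated HCT116 and 7.97 in treated SW48, and S100A16 at 7.14 in treated RKO, 9.96 in treated HCT116 and 10.11 in treated SW48. ANXA2, the binding partner of S100A10, stood at 7.28 in treated RKO, 7.99 in treated HCT116 and 7.71 in treated SW48, while ANXA6 was higher in RKO, at 11.19 in treated RKO, 10.64 in treated HCT116 and 10.29 in treated SW48.

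Among EGFR ligands and receptors, 3 of 8 were lower in treated RKO than in both, EREG, BTC and EGFR. BTC, which encodes betacellulin, stood at 4.71 in treated RKO, 5.82 in treated HCT116 and 7.70 in treated SW48, and EGFR at 8.38 in treated RKO, 8.98 in treated HCT116 and 11.65 in treated SW48. HBEGF, another ligand, was higher in RKO, at 8.45 in treated RKO, 7.87 in treated HCT116 and 6.82 in treated SW48. ARNT, the DNA-binding partner of AHR, was at 9.36 in treated RKO, 9.48 in treated HCT116 and 9.53 in treated SW48 and did not pass against HCT116, whereas the AHR target TIPARP was lower in treated RKO than in both, at 9.11 in treated RKO, 10.05 in treated HCT116 and 10.33 in treated SW48. Of 9 genes of Wnt receptor turnover only RNF43 was lower than both, and LGR4, FZD5 and LRP6 had clear signal in treated RKO, at 8.63 for LGR4, 7.90 for FZD5 and 9.16 for LRP6. None of the other measured acyl-CoA synthetases, ACSL1, ACSL4 and ACSL6, was lower than both, with ACSL1 at 9.46 in treated RKO, 7.92 in treated HCT116 and 9.59 in treated SW48, and ACSL4 at 9.69 in treated RKO, 9.67 in treated HCT116 and 9.11 in treated SW48. MAOA, the other monoamine oxidase, was at 4.94 in treated RKO, 7.16 in treated HCT116 and 5.11 in treated SW48, so HCT116 was the line with signal from both oxidases. HOOK2 was lower and HOOK3 higher in treated RKO than in both, and PROM2 was lower, at 6.23 in treated RKO, 6.83 in treated HCT116 and 7.35 in treated SW48. IL18R1, a receptor chain for IL18, was lower by at most 0.44 on the log2 scale, and LRIF1's partner SMCHD1 by at most 0.43. SCML1 and SCMH1, relatives of SCML2, were higher in treated RKO than in both. The calls on these relatives use the same fit over all genes.

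Genes that neighbour the members on their chromosomes were lower in RKO at a share near that of all genes. Taking the nearest 2 measured protein-coding genes on each side of every member gave 80 neighbours, of which 7 (8.75%) were lower in treated RKO than in both, against 9.51% of all genes. Genes that were not measured were skipped, so a neighbour need not be the adjacent gene on the chromosome. None of the 80 met the limits on untreated level (0 of 80), and 26 were at 7.5 or more in all 3 untreated lines. LRIF1 lies beside DRAM2, which stood at 9.30 in untreated RKO, 9.04 in untreated HCT116 and 8.74 in untreated SW48, and MPZL2 near UBE4A, at 11.25 in untreated RKO, 11.23 in untreated HCT116 and 11.19 in untreated SW48. The 7 neighbours that were lower were VTI1A beside ACSL5, FRAS1 near ANXA3, BTC and PARM1 near EREG, FGGY beside HOOK1, BCO2 near IL18 and FGFBP1 near PROM1. EREG was the member with 2 of its 4 neighbours lower, PARM1 with log2 differences of -3.39 from treated HCT116 and -4.08 from treated SW48, and BTC with -1.11 from treated HCT116 and -2.99 from treated SW48. EPGN, the ligand gene on the other side of EREG, had low signal in all lines, at 3.73 in untreated RKO, 3.99 in untreated HCT116 and 3.59 in untreated SW48. MET, the nearest measured gene on 1 side of TES, stood at 9.90 in untreated RKO, 11.40 in untreated HCT116 and 9.68 in untreated SW48. NDP, the nearest measured gene on 1 side of MAOB, had signal in SW48 alone. It was at 4.46 in untreated RKO, 4.38 in untreated HCT116 and 8.63 in untreated SW48.

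**Figure D4:**
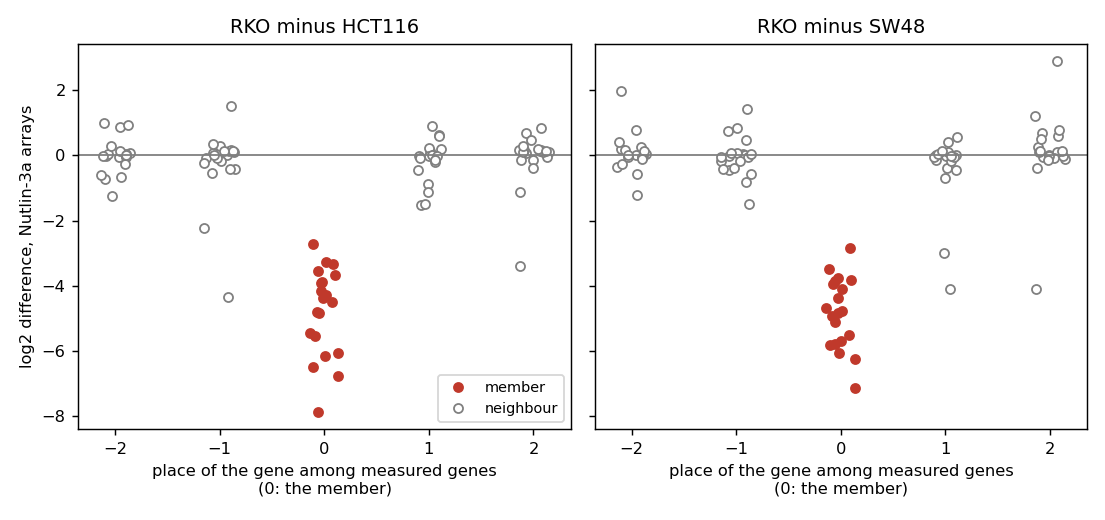
Difference of treated RKO from treated HCT116 (left) and from treated SW48 (right) on the log2 scale for each member, at place 0 in filled red, and for its nearest 2 measured protein-coding genes on either side, at places -2, -1, 1 and 2 in open grey. The members lie between -7.86 and -2.71 from HCT116 and between -7.14 and -2.83 from SW48, while most neighbours lie near 0.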

How the data were processed

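Expression was measured on 12 arrays of 3 cell lines, with 2 arrays for each line with and without Nutlin-3a. The authors' deposited value table holds 1 value per probe set and array. The deposited values are on a log2 scale as judged from the values themselves, which run from 2.22 to 13.45 with nearly equal array medians. Scanner software was GCOS, per the submitters' processing notes. Background correction, summarization, normalization and detection calls were not given in the sources used here, so low values have no stated floor. Array number limits the precision, and 0 columns were left unused.

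Of 37270 probe sets, 14530 carried exactly 1 gene symbol in the platform annotation and the rest carried none. The probe set with the highest mean stood for each of 14118 genes. The members, the gene lists, the families and the motifs were chosen with earlier results of these data known, and the families and motifs after the members' own values had been seen. All 20 members were named with all 12 values. Genes outside the 20 were named when they lay just outside a limit, were among those of a list with the largest RKO difference, or were relatives or neighbours of a member, these last chosen after their values had been seen.

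Group means were fitted for all 12 arrays in limma 3.58.1 (R 4.3.3) with empirical Bayes moderation on the log2 values, which left 6 residual degrees of freedom and a prior of 3.71. P-values were two-sided and adjusted by the Benjamini-Hochberg method over all 14118 genes, at a threshold of 0.05. Errors on fitted differences are standard errors, and errors on means are SDs. "Lower than both" required both contrasts to pass with the same sign. Differences between lines in treated cells are differences of Nutlin-3a group means, and their standard errors and p-values use the spread over all 12 arrays, the untreated ones that chose the members included. Tables and sequences were handled in Python 3.11.15 with pandas 2.3.3, and the test was checked on simulated data. Promoter windows came from RefSeq, GRCh38.p14, matched by symbol. Alternatives varied scaling, variance model, genes tested, threshold, the choice limits, the replicate block and each array. Replicate numbers did not pair the samples: over 15 pairs of groups the correlation of deviations ran from -0.127 to 0.055.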

Additional observations from a re-analysis of the deposited data

How the results depend on the processing

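All 20 genes were lower in treated RKO than in treated HCT116 and in treated SW48 under every alternative run, which follows from their choice. No result reversed. The choice of members moved with the limits: 6 genes met limits of 8.0 and 4.5, 47 met limits of 7.0 and 5.5, 21 met the usual limits after quantile normalization (SDCCAG8 was added), and 19 to 20 did with 1 untreated array left out. S100A10 left without HCT116 untreated array 1, EREG and MAOB without RKO untreated array 1, and NUP62CL without RKO untreated array 2. The number of members called for Nutlin-3a in RKO, 1 as reported, was 0 when RKO was fitted alone and 0 at the stricter threshold of 0.01, 2 after quantile normalization and with the filter on low values, 3 with an intensity trend and robust prior, and 0 to 2 with 1 array left out. In HCT116, 0 as reported, it was 2 with the trend and with the filter, and 0 to 1 with 1 array left out. In SW48, 1 as reported, it was 0 at an adjusted p under 0.01, after quantile normalization, with all probe sets tested and with SW48 fitted alone, and 0 to 0 with 1 array left out, while with the trend EREG (adjusted p = 0.0389) was called in place of HOOK1 (0.0916). For the F test across lines, 0 as reported, it was 3 with the trend, 1 with the filter and 0 to 0 with 1 array left out. The count of members that differed between treated SW48 and treated HCT116, 15 as reported, was 11 to 18 with 1 array left out. ACSL5 in RKO was not called with RKO fitted alone (adjusted p = 0.198), and MYO5C in RKO was called after quantile normalization (0.0397), with the trend (0.0203) and with the filter (0.0286). In HCT116, ZNF280B was called with the trend (0.01995) and the filter (0.0264), and RNF43 with the trend (0.0372) and the filter (0.0359). The cause of these changes was not tested, beyond the fewer arrays or genes that some alternatives use. The filter kept 8737 genes, and all 20 members passed it through the lines where they are high.

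With the replicate number as a block, the counts were 1 in RKO, 0 in HCT116, 0 in SW48 (HOOK1, adjusted p = 0.0789) and 0 for the F test, and the counts between treated lines did not move. The numbers are only numbers in the labels, and deviations of same-numbered arrays correlated at over 0.1 in 0 of 15 pairs of groups. RKO values of the members have low signal, 2 arrays a group and no detection calls. The F test cannot be fitted for single groups and was not run in that form.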
